A study of Homo sapiens with 12 samples.

Results

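The nuclear genes described here encode the proteins that copy and transcribe the mitochondrial genome (mtDNA) or hold its mRNAs stable. They were picked by name from the table of read counts, where TFAM, POLRMT, TFB2M, TEFM, MTERF1, TWNK, POLG, SSBP1, LRPPRC and SLIRP matched 1 row each, so that 10 of 43769 genes are followed over 12 libraries. All 10 passed the filter on low counts, which left 15828 genes for testing. The libraries were bulk RNA-sequencing of SK-N-DZ, a MYCN-amplified human neuroblastoma line, as a clone with a lentiviral hairpin against ARID1A, a subunit of the SWI/SNF chromatin remodeling complex. The hairpin is switched on by doxycycline, a tetracycline antibiotic. Control cells (C) had neither agent, D had doxycycline for 4 days, I had interferon gamma (IFNγ) for 24 h and DI had both, with 3 libraries per group. Every group carried the hairpin, and the labels give the genotype as WT in C and I and as shARID1A in D and DI. No library had doxycycline without the hairpin, so the drug itself, the hairpin and loss of ARID1A cannot be told apart. The labels do not say that replicates were separate cultures, and p-values measure only the spread between these libraries, which may be technical.

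The mitochondrial genome is read by a dedicated single-subunit RNA polymerase, POLRMT, which starts with the help of TFAM and TFB2M and is kept moving by the elongation factor TEFM. MTERF1 binds a termination site behind the rRNA genes. TFAM also wraps and packages mtDNA. Replication needs the Twinkle helicase (TWNK), the catalytic subunit of polymerase gamma (POLG) and the single-stranded DNA binding protein SSBP1. LRPPRC and SLIRP form a complex that binds the mature mitochondrial mRNAs and protects them from decay. All these proteins are made from nuclear genes and imported, whereas the mtDNA itself encodes mRNAs for subunits of oxidative phosphorylation only.

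The start regions of several of these genes hold letters bound by NRF1 and by GABP, nuclear factors known as activators of mitochondrial genes, and they are shown because both kinds of factor are textbook regulators of this gene set. RefSeq promoters on GRCh38.p14, from 250 bases before to 50 after the start, were searched on both strands for GCGCANGC (NRF1) and CCGGAAG (GABP). An entry was found for all members except TWNK. The NRF1 letters were in 3 members (TFAM, POLRMT and TFB2M) and in 12.5% of 27305 promoters. The GABP letters were in 5 members (POLRMT, TEFM, MTERF1, SSBP1 and SLIRP) and in 10.7% of the promoters. POLG and LRPPRC held neither. Each window below has 30 bases in the direction of the gene, with a match in capitals. The first 3 are NRF1 matches, at chr10:58385338-58385367 (TFAM, plus strand), chr19:633543-633572 (POLRMT, minus strand, where 2 further matches overlap the printed one) and chr1:246566262-246566291 (TFB2M, minus strand, with 1 further overlapping match). The other two are GABP matches, at chr7:91880734-91880763 (MTERF1, minus strand) and chr14:77708016-77708045 (SLIRP, plus strand). A match describes the letters and is not evidence of binding.
TFAM: cgctctcccgcGCCTGCGCcaattccgccc
POLRMT: aggcggcgcggGCGCATGCgcaggcgcggg
TFB2M: aaggctccgctgttcGCATGCGCaggctct
MTERF1: gcgacccgaggCCGGAAGttagtcttttcc
SLIRP: taccctctgatCCGGAAGcagattctctcg

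Libraries held 16469832 to 21790869 counts. Levels are in CPM, the counts of a gene relative to the TMM-scaled library size. Without IFNγ, ARID1A had 165 to 197 CPM in C and 158 to 197 in D. With it, the range was 192 to 203 in I and 133 to 151 in DI. As a log2 fold change, ARID1A stood at −0.092 between D and C (edgeR's quasi-likelihood test, Benjamini-Hochberg adjusted p = 0.788) and −0.44 for DI vs I (adjusted p = 0.115), so that the targeted transcript did not pass the test in either. With the replicate block in edgeR's model the adjusted p for DI vs I was 0.0111, and by DESeq2 it was 0.00482, while D vs C passed in neither. Its doxycycline average (D and DI against C and I) was −0.27, with an adjusted p of 0.0606 by edgeR, 0.00858 with the block and 0.00989 by DESeq2. The paper reports loss of ARID1A in its SK-N-DZ knockdown cells by RT-qPCR and of the protein by Western blot, measures not examined here. Adrenergic neuroblastoma markers were present, 12 of 13 at 1 CPM or more in every library (all but TH), and summed to between 4957 and 6577 CPM. TH, which was below 1 CPM in at least 1 library, fell by 3.82 on the log2 scale in the doxycycline average (edgeR adjusted p = 0.0349). PHOX2A rose by 0.38 on that scale with IFNγ (edgeR adjusted p = 0.00533). Of the 13 adrenergic markers, 8 were below 0 in the doxycycline average (median −0.11) and 6 in the IFNγ average (median 0.093). None of the leukocyte markers reached 1 CPM in every library, CD3E and MS4A1 were at 0 throughout, and the list summed to between 0.198 and 1.5 CPM. Of 8 fibroblast markers, COL1A2, COL3A1, PDGFRB and THY1 were at 1 CPM or more in every library, and the list summed to 107 to 135 CPM in C and 78.7 to 105 in D, and with IFNγ to 126 to 171 in I and 103 to 137 in DI. On the log2 scale THY1 fell by 0.52 in the doxycycline average (edgeR adjusted p = 0.0174) and COL1A2 rose by 1.51 with IFNγ (edgeR adjusted p = 0.0466). The other fibroblast markers did not share these directions. Of 7 tested, 3 were below 0 in the doxycycline average (median 0.010, range −2.35 to 1.02). In the IFNγ average 4 of 7 were below 0 (median −0.086, range −1.06 to 1.51). The part of these markers in the results below was not tested. In bulk RNA, fewer cells of a type and less RNA per cell cannot be told apart.

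None of the 10 factors passed the test in any comparison (edgeR's quasi-likelihood test on all 12 libraries, adjusted p under 0.05 over all tested genes). With the replicate number as a block in that model, 2 passed in the doxycycline average, where 29% of all genes did. In the IFNγ average 2 passed, beside 10.9% of all genes, and 0 passed in the other comparisons. Without the block, the share of all genes called was 1.23% for D vs C and 0.67% for DI vs I. It was 2.21% for I vs C and 1.72% for DI vs D. Averaged over IFNγ, D and DI against C and I (the doxycycline average) called 7.68% of genes. The matching IFNγ average, I and DI against C and D, called 3.81%. The interaction, which asks whether the doxycycline difference depended on IFNγ, called 0% of genes, and 0.625% had an unadjusted p under 0.05, none of them a member. By DESeq2 the members called were 0 in the 4 direct comparisons, the interaction and the IFNγ average. In the doxycycline average DESeq2 called 1, beside 14.2% of all genes. At an unadjusted p under 0.05 there were 0 members in D vs C (14.2% of all genes), 1 member in DI vs I (12.2%), 0 in I vs C (8% of all genes), 1 in DI vs D (6.24%), 2 in the doxycycline average (23.4%) and 2 in the IFNγ average (11.7%). With 10 members, these counts lay near the background shares.

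**Figure D1:**
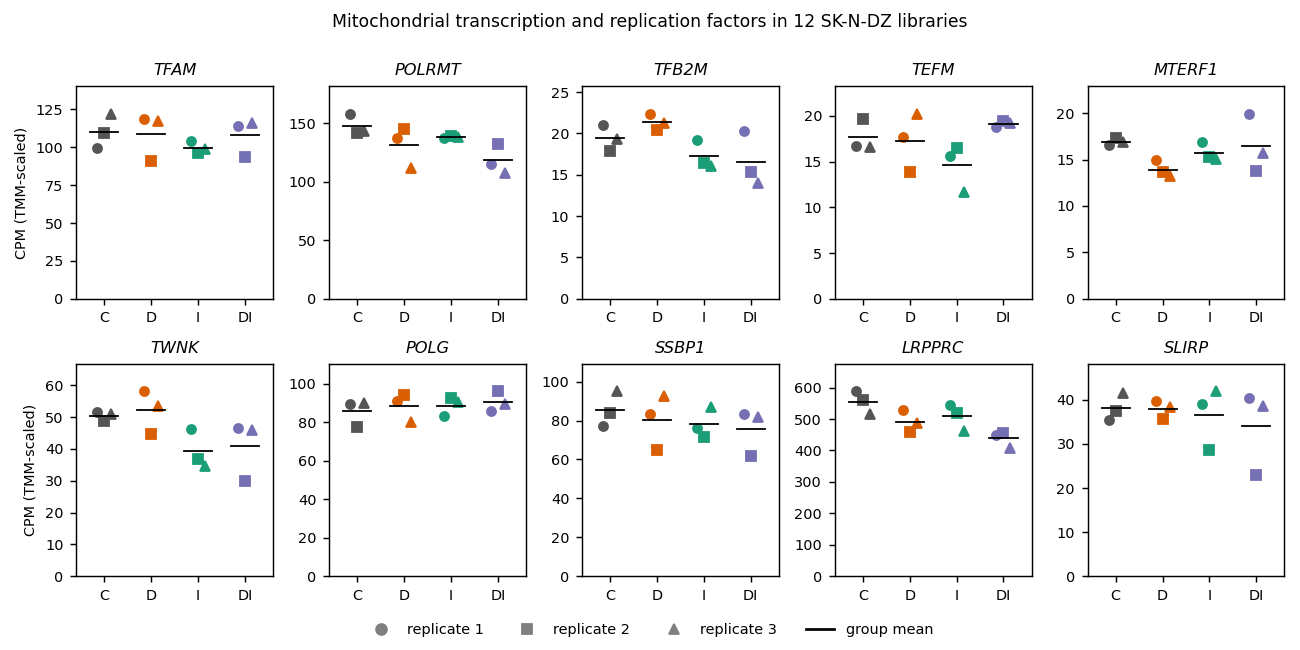
Level of each factor in the 12 libraries, in TMM-scaled CPM on axes that start at 0. Circles, squares and triangles are replicates 1, 2 and 3, and the line is the mean of the 3 libraries of a group. LRPPRC and POLRMT lie lower in DI than in I, TWNK lies lower in I than in C, and replicate 2 sits apart from the other two for SSBP1 and SLIRP in DI.

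Replicates with the same number deviated together in these libraries, so values are listed in the order of replicates 1, 2 and 3, and a fit that holds the replicate number as a blocking term is given where it alters a call. Groups compared here share libraries (C enters both D vs C and I vs C, for example), and one unusual library then enters more than 1 value. Counts out of 6 pairs rest on 3 replicate numbers. The share of all genes with as many pairs in one direction is not given.

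TFAM (ENSG00000108064, chr10:58385022-58399221 in GENCODE 29, plus strand), which bends promoter DNA and packages the genome, had 99.9, 109 and 122 CPM in C and 119, 90.8 and 118 in D. With IFNγ it had 104, 96.0 and 99.1 CPM in I and 114, 93.7 and 116 in DI. Groups overlapped in every comparison, and the highest library was only 1.34 times the lowest. The doxycycline average was 0.048 on the log2 scale (95% interval −0.15 to 0.25), with D above C or DI above I in 3 of 6 pairs of the same replicate number. The IFNγ average was −0.081 (−0.28 to 0.12). On the linear scale the doxycycline average was 1.03 times, with bounds of 0.900 and 1.19.

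POLRMT (ENSG00000099821, chr19:617224-633604, minus strand), the polymerase itself, had 158, 142 and 144 CPM in C and 138, 145 and 112 in D. It had 137, 139 and 138 CPM in I and 115, 133 and 108 in DI. The 3 DI libraries lay below all I libraries, and the I libraries lay below all C libraries, while C and D overlapped. The log2 fold change was −0.17 for D vs C (95% interval −0.42 to 0.082) and −0.22 for DI vs I (−0.47 to 0.030). Its doxycycline average was −0.19 (−0.37 to −0.017, lower in 5 of 6 pairs), with an unadjusted p of 0.0346 and an adjusted p of 0.171 by edgeR. With the replicate block in edgeR's model the adjusted p was 0.0375, and by DESeq2 it was 0.116. Scaled by library size alone, the doxycycline average of POLRMT was −0.10, D vs C −0.077 and DI vs I −0.13. POLRMT was also lower with IFNγ in 6 of 6 pairs, at an IFNγ average of −0.12 (−0.30 to 0.053).

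TFB2M (ENSG00000162851, chr1:246540560-246566324, minus strand), which melts the promoter for the polymerase, had 21.0, 17.9 and 19.3 CPM in C and 22.4, 20.4 and 21.3 in D. With IFNγ it stood at 19.1, 16.5 and 16.0 CPM in I and 20.3, 15.4 and 14.1 in DI. D was the highest group, and the 3 DI libraries lay below all D libraries. DI vs D was −0.37 (95% interval −0.70 to −0.029, edgeR unadjusted p = 0.0359, adjusted p = 0.681). The IFNγ average was −0.27 (−0.51 to −0.031), lower in 6 of 6 pairs. Its adjusted p was 0.328 by edgeR, 0.207 by DESeq2 and 0.0418 with the replicate block. The doxycycline average was 0.042 (−0.20 to 0.28).

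TEFM (ENSG00000172171, chr17:30897336-30906820, minus strand), the elongation factor, had 16.7, 19.6 and 16.6 CPM in C and 17.7, 13.8 and 20.2 in D. It had 15.6, 16.5 and 11.6 CPM in I and 18.7, 19.4 and 19.2 in DI. DI libraries were close together and above all I libraries, whereas I lay below all C libraries. DI vs I was 0.39 (95% interval 0.0071 to 0.77), with an unadjusted p of 0.0465 and an adjusted p of 0.401 by edgeR. D vs C was −0.034 (−0.42 to 0.35). The interaction was 0.42 (−0.12 to 0.96), the highest among the members, with an unadjusted p of 0.112 by edgeR. TEFM shares 542 bases of exon with an antisense gene on the opposite strand, but the genes that overlap it had at most 4 counts in any library.

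MTERF1 (ENSG00000127989, chr7:91692008-91880720, minus strand), the termination factor, had 16.5, 17.3 and 16.9 CPM in C and 14.9, 13.6 and 13.2 in D. It had 16.9, 15.3 and 15.04 CPM in I and 19.9, 13.7 and 15.7 in DI. All D libraries lay below all C libraries, and MTERF1 was the one member of 10 whose D and C groups did not overlap, against 19.2% of all genes. The log2 fold change was −0.28 (95% interval −0.60 to 0.042, edgeR adjusted p = 0.428). With IFNγ present the difference was 0.062 (−0.26 to 0.38), and the interaction between them was 0.34 (−0.11 to 0.80, edgeR unadjusted p = 0.126).

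Among the replication proteins, TWNK (ENSG00000107815, chr10:100987367-100994401, plus strand), the helicase that unwinds mtDNA, had 51.6, 48.6 and 51.0 CPM in C and 58.0, 44.7 and 53.6 in D. It had 46.4, 37.0 and 34.5 CPM in I and 46.6, 29.8 and 46.0 in DI. All I libraries lay below all C libraries, and the C group spread little (50.4 ± 1.56 CPM, SD, n = 3) beside the other groups (I, 39.3 ± 6.24). I vs C was −0.36 (95% interval −0.76 to 0.038, edgeR adjusted p = 0.722) and DI vs D was −0.35 (−0.75 to 0.043, edgeR adjusted p = 0.935). Their IFNγ average was −0.36 (−0.64 to −0.075), or 0.782 times, lower in 6 of 6 pairs. Its unadjusted p was 0.0175 and its adjusted p 0.235 by edgeR, 0.124 by DESeq2 and 0.0227 with the replicate block. No direction was seen with doxycycline, at an average of 0.051 (−0.23 to 0.33). TWNK shares 149 bases of exon with MRPL43, a mitochondrial ribosomal protein gene on the opposite strand with up to 1573 counts, and reads there cannot be assigned where counting does not use strand, which is not given in the sources used here.

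POLG (ENSG00000140521, chr15:89305198-89334861, minus strand), the polymerase that copies mtDNA, had 89.7, 77.7 and 89.8 CPM in C and 91.3, 94.2 and 80.3 in D. It had 83.1, 92.5 and 90.5 CPM in I and 85.7, 96.0 and 89.7 in DI. It was the steadiest of the members, the highest library being 1.24 times the lowest, and its groups overlapped in all 4 comparisons. Its doxycycline average was 0.038 (95% interval −0.11 to 0.19) and its IFNγ average 0.040 (−0.11 to 0.19). POLG overlaps 458 exonic bases of FANCI, a DNA repair gene on the opposite strand with up to 5117 counts, and the same limit on assigning reads applies.

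SSBP1 (ENSG00000106028, chr7:141738321-141787922, plus strand), which coats the displaced single strand, had 77.4, 84.1 and 94.9 CPM in C and 83.3, 64.8 and 92.7 in D. It had 76.3, 71.4 and 86.9 CPM in I and 83.5, 61.6 and 81.9 in DI. Groups overlapped in all 4 comparisons, and the lowest value of D, I and DI was in each case that of replicate 2. The doxycycline average was −0.069 (95% interval −0.32 to 0.18) and the IFNγ average −0.11 (−0.35 to 0.14).

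Of the pair that protects mitochondrial mRNAs, LRPPRC (ENSG00000138095, chr2:43886508-43996005, minus strand) was the most deeply counted member, with at least 8291 counts in each library. It had 587, 561 and 517 CPM in C and 529, 459 and 486 in D. With IFNγ it had 545, 518 and 463 CPM in I and 450.4, 457 and 408 in DI. The 3 DI libraries lay below all I and all D libraries, while 1 D library lay within the range of C. D vs C was −0.18 (95% interval −0.39 to 0.039, edgeR adjusted p = 0.459) and DI vs I was −0.21 (−0.43 to 0.00025, edgeR adjusted p = 0.409). LRPPRC was lower with doxycycline in 6 of 6 pairs, from 532 to 465 CPM on average, which is 0.874 times (0.786 to 0.970). This doxycycline average of −0.19 (−0.35 to −0.043) had the lowest p of any member, 0.0165 unadjusted and 0.112 adjusted by edgeR. With the replicate block in edgeR's model the adjusted p was 0.0125, and by DESeq2 it was 0.0316. Scaled by library size alone, the doxycycline average of LRPPRC was −0.11, D vs C −0.088 and DI vs I −0.12. LRPPRC was also lower with IFNγ in 6 of 6 pairs, by an average of −0.15 (−0.30 to 0.0064, edgeR adjusted p = 0.456).

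SLIRP (ENSG00000119705, chr14:77708071-77761104, plus strand), the small partner that depends on LRPPRC for its stability as a protein, had 35.3, 37.4 and 41.6 CPM in C and 39.8, 35.7 and 38.5 in D. It had 39.0, 28.6 and 41.9 CPM in I and 40.3, 23.0 and 38.6 in DI. Groups overlapped in all 4 comparisons, with I replicate 2 and DI replicate 2 well below the rest. Its doxycycline average was −0.054 (95% interval −0.37 to 0.27) and its IFNγ average −0.11 (−0.43 to 0.21). LRPPRC reads per SLIRP read, a ratio within each library, were 12.4 to 16.6 in C and 12.6 to 13.3 in D, and with IFNγ 11.1 to 18.1 in I and 10.6 to 19.9 in DI. This ratio did not separate the groups (exact permutation test, two-sided, p = 0.4 for D vs C and p = 0.9 for DI vs I, n = 3 per group, smallest possible p = 0.1). SLIRP shares 275 exonic bases with C14orf178 on the same strand and also overlaps SNW1 on the other, so its counts are less certain than those of LRPPRC.

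As a set, the members' log2 fold changes had a median of −0.0079 in the doxycycline average, beside −0.0019 for all tested genes, with 5 of 10 below 0. In the IFNγ average their median was −0.11, beside −0.013 for all genes, with 8 of 10 below 0 (all but MTERF1 and POLG). With the replicate block the members called were LRPPRC and POLRMT in the doxycycline average, where this model called 29% of all genes, and TWNK and TFB2M in the IFNγ average, where it called 10.9%. DESeq2 called LRPPRC alone in the doxycycline average, and 14.2% of all genes. The members whose groups did not overlap were POLRMT, TEFM and LRPPRC for DI vs I (16.6% of all genes), POLRMT, TEFM and TWNK for I vs C (15.1%) and TFB2M and LRPPRC for DI vs D (9.55%). Replicate 2 of D was the lowest of its group for 7 of 10 members, and replicate 2 of DI was the lowest for 5 and the highest for 4.

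The mRNAs that the mtDNA encodes had lower estimates with doxycycline than any factor. The 13 mtDNA-encoded mRNAs took 4.99%, 3.77% and 3.35% of counts in C and 1.30%, 1.08% and 0.856% in D. With IFNγ they took 4.42%, 3.91% and 2.90% in I and 2.58%, 1.12% and 0.768% in DI. In the doxycycline average 10 of 13 fell (edgeR adjusted p under 0.05), with a median log2 fold change of −1.64 and a range of −2.38 (MT-ND6) to −0.79 (MT-ATP8). The other three, MT-ND2, MT-ATP6 and MT-ATP8, had adjusted p-values above 0.05 by edgeR and were called with the replicate block and by DESeq2, which each called all 13. In D vs C 6 were called by edgeR (13 with the replicate block, 10 by DESeq2), and in DI vs I 3 (12 with the block, 7 by DESeq2). Replicate 1 of DI stood apart from the other two, and without it the calls were 10 in D vs C, 9 in DI vs I and 13 in the doxycycline average. Without any single one of the other 11 libraries, DI vs I kept 1 call and the doxycycline average 7 (without C replicate 1) to 10. D vs C kept 1 call without D replicate 1 or D replicate 2, and 2 without D replicate 3. It kept 3 without C replicate 1 or C replicate 2, and 4 to 7 without the others. With replicate number 1, 2 or 3 left out of every group, DI vs I had 0 calls each time. For D vs C these fits gave 0, 1 and 0 calls, and for the doxycycline average 11, 6 and 6. Fitted on the compared libraries alone, DI vs I had 0 calls, whereas D vs C had 5. In the IFNγ average no mtDNA-encoded mRNA was called by edgeR or DESeq2 (0 with an unadjusted edgeR p under 0.05), with a median of 0.21.

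**Figure D2:**
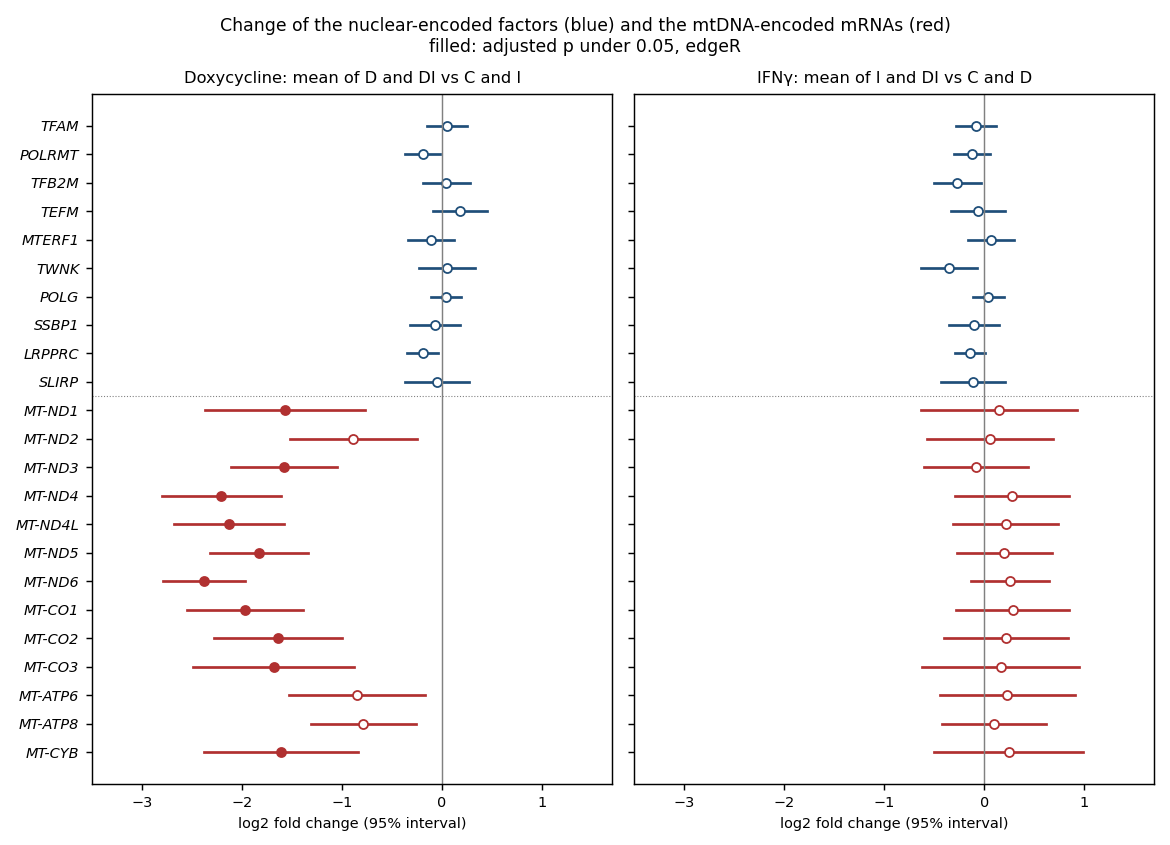
Log2 fold change with its 95% interval for the 10 nuclear-encoded factors (blue) and the 13 mtDNA-encoded mRNAs (red), for the doxycycline average on the left and the IFNγ average on the right. Filled points had an adjusted p under 0.05 by edgeR, which is the case for 10 mtDNA-encoded mRNAs on the left and for no factor on either side. The factors lie between −0.19 and 0.18 on the left.

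Counting the mitochondrial mRNAs per read of a factor removes the scaling between libraries, since both numbers come from one library. There were 512, 345 and 282 such reads per TFAM read in C and 106, 112 and 70.0 in D, which is 3.91-fold fewer with doxycycline. With IFNγ there were 443, 427 and 308 in I and 225, 117 and 64.9 in DI, 3.25-fold fewer. Neither pair of groups overlapped (exact permutation test, two-sided, p = 0.1 for each, n = 3 per group, the smallest possible). Per POLRMT read the numbers were 239 to 323 in C against 70.1 to 91.5 in D, 3.52-fold fewer (exact permutation p = 0.1, n = 3). In the presence of IFNγ they were 221 to 336 in I against 69.9 to 222 in DI, where replicate 1 of DI reached into the range of I (2.58-fold, exact permutation p = 0.2, n = 3). That overlap was between different replicate numbers: within pairs of the same number the ratio went from 336 to 222, from 294 to 82.3 and from 221 to 69.9. Per LRPPRC read there were 66.6 to 87.1 in C and 16.9 to 23.8 in D, then 65.9 to 84.6 in I and 18.5 to 56.8 in DI, and neither doxycycline group reached its counterpart (3.52-fold and 2.60-fold, exact permutation p = 0.1 each, n = 3). Without replicate 1 of DI the ratios of I to DI were 4.46 per TFAM read, 3.69 per POLRMT read and 3.62 per LRPPRC read. Replicate 1 of I was kept there, so the groups were no longer matched by number. It was the highest of I for each factor (443, 336 and 84.6). These ratios were chosen after the data were seen.

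**Figure D3:**
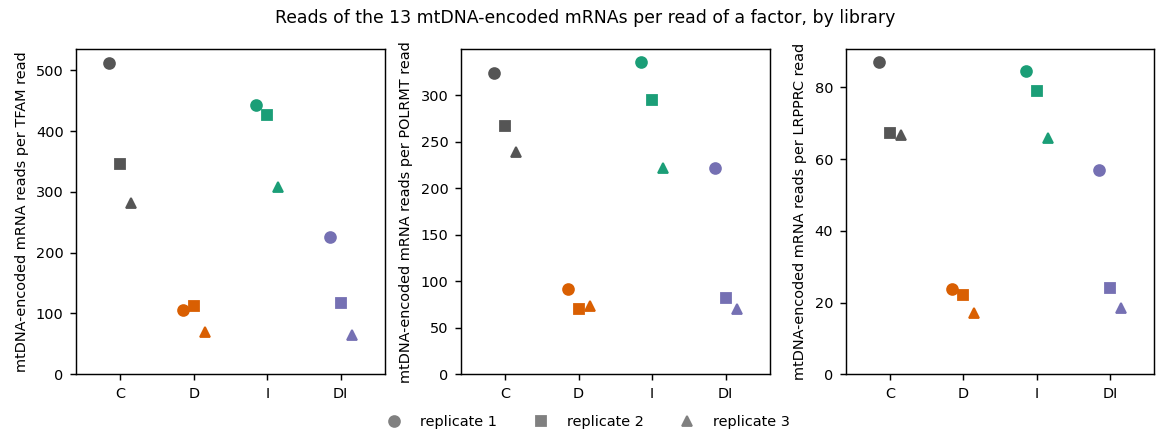
Reads of the 13 mtDNA-encoded mRNAs per read of TFAM (left), POLRMT (middle) and LRPPRC (right) in each library, on linear axes that start at 0. Symbols are replicates 1, 2 and 3. All D libraries lie below all C libraries in the 3 panels, and DI replicate 1 lies above the other DI libraries.

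Levels can be set side by side between genes only per length, and were compared in C as CPM per kb of the principal transcript. SLIRP (93.4 ± 7.77 CPM per kb, SD, n = 3), LRPPRC (87.6 ± 5.64) and SSBP1 (86.4 ± 8.93) came first and overlapped each other in turn. POLRMT followed at 38.6 ± 2.34 CPM per kb, apart from its neighbours. TFAM (20.4 ± 2.06) and POLG (19.0 ± 1.54) overlapped, then came TWNK at 13.9 ± 0.432. TFB2M (10.5 ± 0.851) and TEFM (9.33 ± 0.906) overlapped, and MTERF1 was lowest at 8.46 ± 0.187 CPM per kb. This order depends on the length used. Over all annotated exons LRPPRC came first at 56.9 CPM per kb, and SLIRP was 14.5 and SSBP1 17.1. For SLIRP the principal transcript has 408 bp and all annotated exons 2631 bp.

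**Figure D4:**
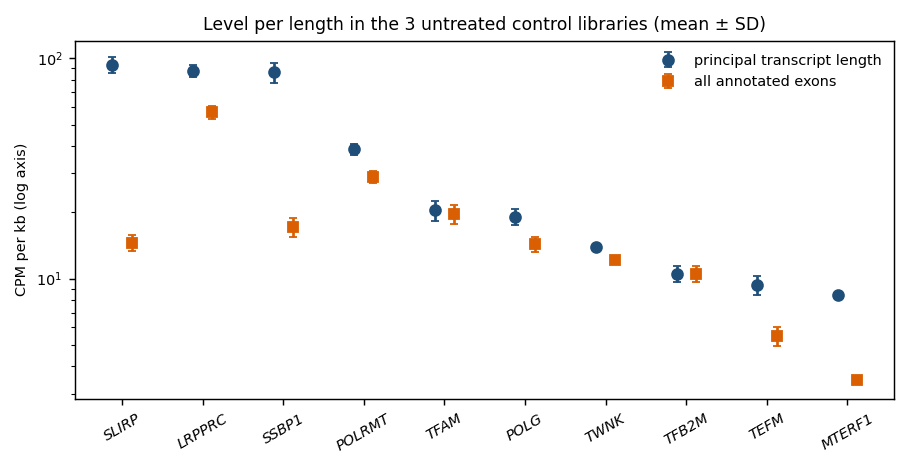
Level of each factor in the 3 control libraries in CPM per kb (log axis), as mean ± SD, divided by the length of the principal transcript (blue circles) or of all annotated exons (orange squares). SLIRP and SSBP1 change most between the lengths, and MTERF1 is lowest with both.

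Around these factors, 4 lists of related nuclear genes were counted in the same model. Of 15 other genes for mtDNA replication and upkeep, 1 was called in the doxycycline average, in which edgeR called 7.68% of all genes, and the counts of the other lists stand against the same share. It was TOP3A, a topoisomerase that separates finished mtDNA molecules. TOP3A had 126 ± 2.20 CPM in C and 156 ± 5.27 in D, and with IFNγ 106 ± 1.54 in I and 136 ± 6.48 in DI (SD, n = 3 each). It was higher with doxycycline (0.33, 95% interval 0.21 to 0.44, edgeR adjusted p = 0.00563). With IFNγ it was lower (−0.22, −0.34 to −0.11, edgeR adjusted p = 0.0385), in an average where edgeR called 3.81% of all genes. This call was lost with any of the 12 libraries left out (adjusted p 0.0536 to 0.114) or with no filter on low counts (adjusted p = 0.232). With a library left out the estimate stayed between −0.24 and −0.20. The adjusted p for TOP3A with IFNγ was 0.00824 with the replicate block, which called 10.9% of all genes, and 2.1e-05 by DESeq2. All 15 genes of this list had an IFNγ average below 0, with a median of −0.19 beside −0.013 for all genes. The list of RNA processing, modification and decay was also lower there, with 24 of 28 below 0 (median −0.11). For the nucleotide supply it was 8 of 14 (median −0.022) and for the nuclear regulators 9 of 13 (median −0.049). The share of all genes below 0 is not given.

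Of 14 genes for the mitochondrial nucleotide supply, SLC25A4, an ADP/ATP carrier of the inner membrane, was the one called in the doxycycline average. It fell by 0.27 on the log2 scale (edgeR adjusted p = 0.0389), from 62.7 ± 4.02 CPM in C to 48.3 ± 0.642 in D, and had 54.1 ± 2.78 in I and 48.6 ± 4.53 in DI. Of 28 genes for mitochondrial RNA processing, modification and decay, 2 fell in that average. TBRG4, an RNA-binding protein of the FASTK family, fell by 0.34 (edgeR adjusted p = 0.0118), with 141 ± 10.8 CPM in C and 111 ± 1.13 in D, and with 131 ± 12.5 in I and 104 ± 2.78 in DI. NSUN4, which methylates mitochondrial rRNA, fell by 0.39 (edgeR adjusted p = 0.0357), with 38.7 ± 5.71 CPM in C and 30.8 ± 2.29 in D, and with 34.9 ± 1.49 in I and 25.6 ± 3.01 in DI.

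Of 13 nuclear regulators of mitochondrial genes, HCFC1, a co-regulator that docks on many promoter-bound factors, rose by 0.52 in the doxycycline average (edgeR adjusted p = 0.0449). HCFC1 had 287 ± 15.8 CPM in C and 443 ± 105 in D, then 294 ± 26.3 in I and 394 ± 93.4 in DI. Its spread was wide in D (545, 336 and 449 CPM) and in DI (441, 287 and 455 CPM). The median of the 13 regulators was 0.18, with 2 of 13 below 0. None of the 4 lists had a call by edgeR in D vs C, DI vs I, I vs C or DI vs D. With the replicate block the calls in the doxycycline average were 3 of 15 for replication and upkeep, 7 of 14 for nucleotide supply, 9 of 28 for RNA processing and 5 of 13 for the regulators, where the block called 29% of all genes. In the same order, the block gave 3, 2, 5 and 2 calls for D vs C (13.9% of all genes), then 2, 1, 5 and 0 for DI vs I (10.5%) and 2, 1, 1 and 0 for I vs C (6.02%). For DI vs D it gave 0 in each list (4.46%). DESeq2 gave 2, 3, 4 and 3 calls in the doxycycline average (14.2%). For D vs C it gave 1, 1, 1 and 1 (814 genes in all), and for DI vs I 1, 0, 2 and 0 (617 genes in all). In I vs C and DI vs D its only call was in replication and upkeep, 1 in each (558 and 442 genes in all). The calls of TOP3A and TBRG4 with doxycycline held with each library left out in turn. That of SLC25A4 was lost in 11 of 12 such fits (kept without DI replicate 1), that of NSUN4 in 10 (kept without C replicate 3 or DI replicate 2) and that of HCFC1 in 10 (kept without D replicate 2 or DI replicate 2). With no filter on low counts the edgeR adjusted p was 0.112 for SLC25A4, 0.0683 for NSUN4 and 0.0528 for HCFC1. With library size alone it was 0.128 for SLC25A4 and 0.0823 for NSUN4, so that these calls were lost there too. With the replicate block the adjusted p was 0.00941 for SLC25A4, 0.00177 for NSUN4 and 0.00168 for HCFC1. By DESeq2 it was 0.00181, 0.0023 and 0.00544 in that order. Over the fits with a library left out, the estimates ran from −0.31 to −0.24 for SLC25A4. They were −0.45 to −0.35 for NSUN4 and 0.43 to 0.61 for HCFC1.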

How the data were processed

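RNA-sequencing of 12 SK-N-DZ libraries, 3 in each of C, D, I and DI, was analysed from the raw read counts per gene that the authors deposited. The aligner, the counting tool, the genome build and the use of strand are not given in the sources used here, and the submitters' processing notes name DESeq2. Tables of fold changes and p-values from the authors' own group comparisons were not used, nor were 18 further per-library columns whose names the labels do not explain. Groups came from the labels. All 43769 identifiers occur in GENCODE 29 (GRCh38), from which positions, exons and overlaps were taken.

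Counts were TMM-scaled, filtered with filterByExpr (minimum count 10) and fitted with edgeR's quasi-likelihood model over all 12 libraries, with 1 coefficient per group (R 4.3.3, edgeR 4.0.16, limma 3.58.1). Tests were two-sided, and genes with a Benjamini-Hochberg adjusted p under 0.05 over all 15828 tested genes were called. Libraries of 16469832 to 21790869 counts gave each member at least 222 counts. Intervals are at 95% and come from this model. Libraries of a group differed beyond counting noise, with a chi-square per gene of 19.0 to 82.8.

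Same-numbered libraries were set side by side in the counts of pairs. Their deviations from the group means correlated at 0.338 to 0.804 in 18 comparisons, against −0.628 to 0.143 in 36 between different numbers. No label says what a number marks, so the main model has no block and the replicate block is an alternative. The other alternatives were DESeq2 1.42.0, its size factors, library size alone, no filter, no mtDNA-encoded genes in the scaling, the compared libraries alone, and leaving out each library or replicate number. The fitting code was tested on simulated data. Ratios within a library were compared with exact permutation tests in Python 3.11.15 (scipy 1.17.1), which did not use the replicate number.

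All 10 members were named. Of the related lists, genes that passed the test were named, at most 4 per list and comparison. The members and lists were chosen with earlier results of these data known. The IFNγ average, the ratios and the second length were added after seeing the data. The level of 1 marker gene is not reported here.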

Additional observations from a re-analysis of the deposited data

How the results depend on the processing

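The 10 factors in 7 comparisons gave 70 log2 fold changes and 1510 values under alternatives, of which 1403 kept the direction and the side of the threshold, 102 changed sign, 5 passed the threshold that the main value did not, and 0 went the other way. No factor was called with a library or a replicate number left out. The replicate block raised the members called from 0 to 2 in the doxycycline average (LRPPRC and POLRMT), where it called 29% of all genes. In the IFNγ average it raised them from 0 to 2 (TWNK and TFB2M), where it called 10.9%. It changed no other call of a member. DESeq2 raised the doxycycline average from 0 to 1 (LRPPRC), and called 14.2% of all genes there. The causes were not tested.

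Library size alone moved the median of all genes by 0.086 in D vs C, 0.092 in DI vs I and 0.090 in the doxycycline average. In these it brought LRPPRC to −0.088, −0.12 and −0.11 (from −0.18, −0.21 and −0.19) and POLRMT to −0.077, −0.13 and −0.10 (from −0.17, −0.22 and −0.19). It turned the sign of members near 0. In D vs C these were SLIRP (0.082), TEFM (0.051) and TFAM (0.070), in DI vs I SSBP1 (0.044) and TFB2M (0.036), and in DI vs D POLG (−0.0086). In the averages they were SLIRP (0.035) and SSBP1 (0.020) with doxycycline and POLG (−0.000197) with IFNγ.

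Leaving out libraries turned the sign of 34 of the 70 values at least once, all of them short of the threshold. In D vs C the ranges were −0.078 to 0.14 for POLG, −0.093 to 0.059 for SLIRP, −0.21 to 0.041 for SSBP1, −0.21 to 0.17 for TEFM, −0.15 to 0.098 for TFAM and −0.038 to 0.15 for TWNK. In DI vs I they were −0.10 to 0.17 for MTERF1, −0.018 to 0.068 for POLG, −0.25 to 0.11 for SLIRP, −0.14 to 0.079 for SSBP1, −0.23 to 0.050 for TFB2M and −0.11 to 0.24 for TWNK. In I vs C they were −0.052 to 0.13 for POLG and −0.19 to 0.085 for SLIRP. In DI vs D they were −0.035 to 0.089 for POLG, −0.30 to 0.057 for SLIRP, −0.22 to 0.044 for SSBP1 and −0.13 to 0.076 for TFAM. For the interaction they were −0.093 to 0.031 for LRPPRC, −0.085 to 0.097 for POLG, −0.15 to 0.024 for POLRMT, −0.24 to 0.12 for SLIRP, −0.089 to 0.17 for SSBP1 and −0.14 to 0.19 for TWNK. In the doxycycline average they were −0.029 to 0.10 for POLG, −0.14 to 0.053 for SLIRP, −0.16 to 0.020 for SSBP1, −0.024 to 0.13 for TFAM, −0.045 to 0.094 for TFB2M and −0.040 to 0.15 for TWNK. In the IFNγ average they were −0.018 to 0.14 for MTERF1, −0.0038 to 0.11 for POLG, −0.22 to 0.047 for SLIRP and −0.14 to 0.055 for TEFM.

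Over all genes, the main model called 194 in D vs C, beside 2200 with the replicate block, 814 by DESeq2, 119 without the filter and 16 from the compared libraries alone. DI vs I had 106, beside 1658, 617, 84 and 0. I vs C had 350 (953 with the block, 558 by DESeq2), DI vs D had 273 (706 and 442), the doxycycline average 1216 (4593, 2236 and 752 without the filter) and the IFNγ average 603 (1724 and 935). The interaction had 0, and 2 by DESeq2. With libraries or replicate numbers left out, the calls ran from 0 to 195 in D vs C, 0 to 96 in DI vs I, 127 to 364 in I vs C, 98 to 279 in DI vs D, 71 to 1362 in the doxycycline average and 230 to 562 in the IFNγ average, the lowest of each without replicate 1. In D vs C and DI vs I these fits called 0 genes without that number.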
